A study of Mus musculus with 6 samples.

Results

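Neurofilaments are the intermediate filaments of the axon, and together with microtubules and the proteins that steer them they build the axonal cytoskeleton. The genes described are Nefl, Nefm, Nefh, Ina and Prph, which encode filament subunits, and Gap43, Stmn2, Tubb3, Mapt and Map2, which encode proteins of growing axons and of neuronal microtubules. They were chosen by name, and all 10 of 10 were found among the 37991 genes of the files, Map2 under its older symbol Mtap2. The data are RNA-seq libraries of the dorsal telencephalon, the part of the forebrain that gives rise to the cortex, from CD1 mouse embryos at E13.5. One group of 3 embryos (numbers 6, 7 and 8) was injected into the ventricles with 100 ng of FGF2, a fibroblast growth factor, and a control group of 3 (numbers 7, 8 and 9) with vehicle, PBS with 0.1% BSA. No genetic alteration is named for either group, RNA came from fixed brain sections in front of the hippocampus, and the sources used here do not give the time between injection and collection.

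In a developing neuron the filament subunits appear in a sequence. Vimentin and nestin fill dividing progenitors, internexin alpha (Ina) comes early in young neurons, the light and medium neurofilament proteins (Nefl and Nefm) follow as axons extend, and the heavy protein (Nefh) is added late. Peripherin (Prph) is mainly a filament of neurons that project outside the brain. Microtubules run beside these filaments, built in young neurons with the tubulin Tubb3 and stabilised by tau (Mapt) in axons and by Map2 in cell bodies and dendrites, while Stmn2 and Gap43 act in the growth cone.

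The 5 filament genes are relatives, and so are Tubb3 and the other beta tubulins, so the stretches that their transcripts share show how far reads of one can be told from reads of another. In the reference coding sequences (GENCODE M21, build GRCm38, which is not the build of the deposited coordinates), the longest identical stretch between any 2 of the 5 filament genes was 13 to 35 bases, and 17 between Nefl and Nefm.

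Tubb3 has closer relatives. Its longest identical stretch with another beta tubulin gene is 47 bases, shared with Tubb6 and printed 5′ to 3′ on the coding strand because reads inside it fit both genes.
Tubb3 and Tubb6: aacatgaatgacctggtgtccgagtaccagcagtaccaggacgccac
This stretch starts at base 1240 of the 1350 coding bases of Tubb3. Stmn2 shares 43 bases with Stmn1. Mapt and Map2, although both bind microtubules, share no more than 11. The sources used here do not say how the authors treated reads that fit several genes, so values of Tubb3 and Stmn2 may hold some reads of these relatives.

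Both deposited readouts were used. Counts are reads over the whole gene span, introns included, and are given here as CPM (counts scaled to the size of each library), while RPKM is the authors' value scaled to the length of the exonic gene model and to library size. Total counts ranged from 61489462 to 81532334 per library. All counts of vehicle 9 are even. All FGF2 embryos and vehicle 7 carried reads of Y-linked genes, and vehicle 8 and 9 carried reads of Xist, so sex differed between the groups in part. FGF2 8 stood apart in many of the genes below, and several fold changes are therefore given with and without it.

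In the vehicle embryos the 10 genes spanned a wide range of levels on the RPKM scale. Tubb3 was highest, at 389 ± 8.70 RPKM (SD, n = 3), rank 149 of 26336 listed symbols with a value. Stmn2 followed at 79.4 ± 9.07 and Gap43 at 62.1 ± 4.77 RPKM, and the 3 embryos of the 2 genes did not overlap. Ina, at 36.1 ± 4.16 RPKM, was the most abundant of the filament subunits described here. Mapt at 18.7 ± 2.52 and Map2 at 17.0 ± 2.63 RPKM had overlapping ranges and are not told apart by their level. Nefm came next at 3.40 ± 0.220 and Nefl at 1.81 ± 0.532 RPKM, with no overlap between them. Prph at 0.458 ± 0.184 and Nefh at 0.123 ± 0.0469 RPKM were lowest. Ina made up 85.9% to 87.8% of the summed RPKM of Nefl, Nefm, Nefh and Ina in these embryos. The transcripts of these subunits were thus mostly those of the early one.

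**Figure D1:**
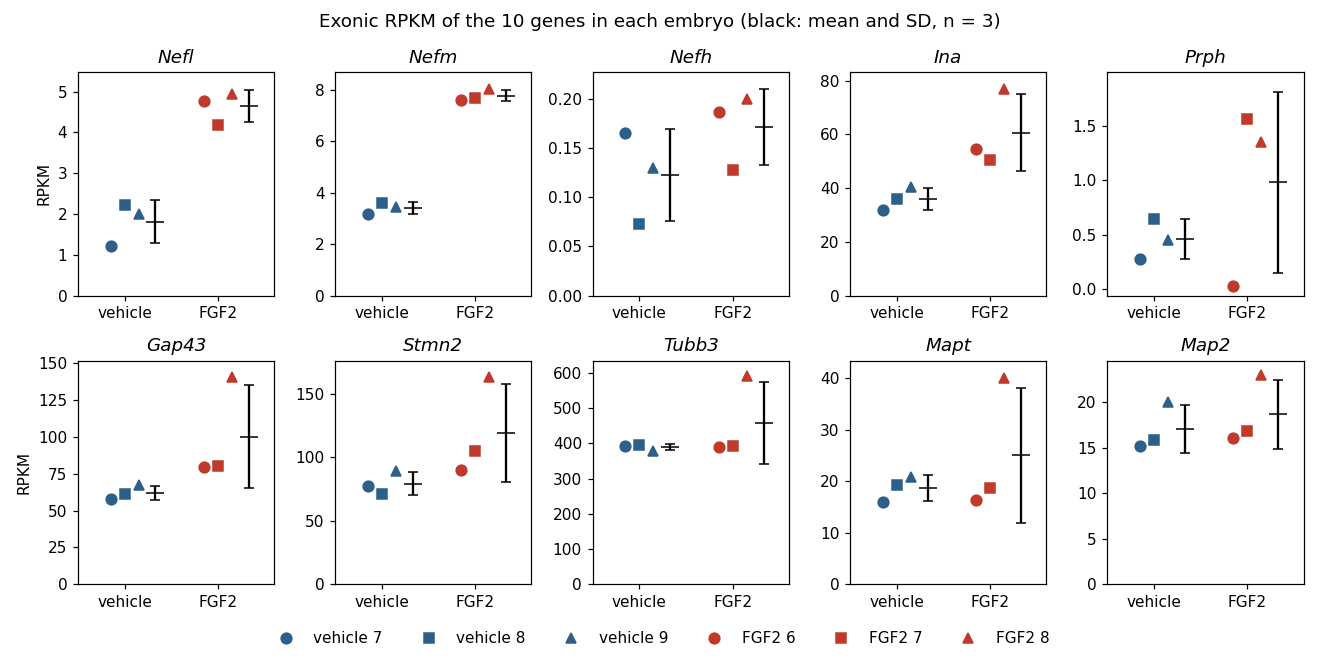
RPKM of the 10 genes (vertical axes, each panel with its own scale) in the 3 vehicle embryos (blue) and the 3 FGF2 embryos (red), with the group mean and SD in black. Nefl, Nefm, Ina, Gap43 and Stmn2 have all 3 FGF2 embryos above all 3 vehicle embryos, and FGF2 8 is the highest point in every panel except that of Prph.

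The comparison of FGF2 with vehicle asks which genes differ after the injection. Of the 10 genes, Nefl and Nefm rose in both readouts, 0 fell, and the other 8 did not pass an adjusted p of 0.05. The background in the span counts, tested with edgeR, was 2.68% of 21983 genes called higher and 0.951% called lower. In the exonic RPKM, tested with limma, 2.20% of 14222 symbols were called higher and 0.724% lower. The RPKM test held 8 of the 10 genes, since Nefh and Prph did not reach 1 RPKM in 3 libraries. The median log2 fold change was 0.60 over the 10 genes in span counts, beside 0.011 over all genes tested, and it was 0.27 without FGF2 8. In bulk tissue, fewer or more cells of a type and less or more RNA per cell cannot be told apart.

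Nefm, the medium subunit, had the smallest spread among the FGF2 embryos of the 10 genes. Its RPKM was 7.62, 7.69 and 8.05 in FGF2 6, 7 and 8 and 3.17, 3.61 and 3.43 in vehicle 7, 8 and 9. The groups were far apart, with a ratio of the means of 2.29, and the coefficient of variation was 2.94% in the FGF2 and 6.45% in the vehicle embryos. On log2(RPKM + 1), a scale that understates the change of low genes, Nefm rose by 0.997 ± 0.08 (SE, limma adjusted p = 0.00213). In span counts the mean was 23.7 CPM in vehicle and 53.5 CPM in FGF2 embryos, a log2 fold change of 1.17 ± 0.10 (SE, edgeR adjusted p = 0.00176). Its call held without any 1 embryo, at an adjusted p of 0.000651 to 0.0127 in span counts and 0.00325 to 0.0223 in RPKM.

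Nefl, the light subunit, stood at 4.78, 4.19 and 4.94 RPKM in FGF2 6, 7 and 8. In vehicle 7, 8 and 9 it was at 1.21, 2.22 and 2.01 RPKM. The groups did not overlap, vehicle 7 was the lowest of the 6, and the ratio of the means was 2.56. Nefl rose by 1.02 ± 0.15 on log2(RPKM + 1) (SE, limma adjusted p = 0.0226) and by 1.32 ± 0.23 in span counts (SE, edgeR adjusted p = 0.0251). The call was lost without FGF2 6, FGF2 7, vehicle 8 or vehicle 9, at an adjusted p of up to 0.0860 in span counts and 0.0873 in RPKM.

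Nefl and Nefm are neighbours on chromosome 14, and in the deposited annotation (NCBIM37) the span of Nefl, 68701920 to 68707152, lies inside that of Nefm, 68700647 to 68742903. The 2 genes lie on opposite strands, so whether reads of Nefl were also counted for Nefm depends on the use of strand. In all 2849 pairs of genes on opposite strands with 1 span inside the other and reads in the inner one, the inner gene had no more reads than the outer one in any library. The counts thus behaved as if strand was ignored, with the Nefl reads part of the Nefm count. With the Nefl reads taken away, an alternative chosen after seeing the data, Nefm kept 3090, 2705 and 2550 reads in FGF2 6, 7 and 8 and 1046, 1224 and 1092 in vehicle 7, 8 and 9. The log2 fold change was then 1.12 ± 0.08 (SE, edgeR adjusted p = 0.00129). The rise of Nefm was thus present in reads that Nefl does not share, as it was in the exonic RPKM. Reads covered 25.2% to 34.7% of the Nefm span and 97.6% to 99.5% of that of Nefl. The ratio of Nefl to Nefm in RPKM was 0.628, 0.545 and 0.614 in FGF2 6, 7 and 8 and 0.381, 0.614 and 0.585 in vehicle 7, 8 and 9. These ratios overlapped, with vehicle 7 alone far below the rest.

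With sex as a covariate both calls were lost. The adjusted p was then 0.0538 for Nefm and 0.0552 for Nefl in span counts and 0.0585 and 0.0548 in RPKM, at log2 fold changes of 1.34 and 1.92 in span counts and 1.07 and 1.35 in RPKM, all larger than without the covariate. In that fit the group difference rests on vehicle 7 as the only male control, and 4 genes in the whole count table were called higher.

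Ina differed in the same direction without passing. Its RPKM was 54.5, 50.3 and 77.0 in FGF2 6, 7 and 8 and 31.9, 36.0 and 40.2 in vehicle 7, 8 and 9. The groups did not overlap, and FGF2 8 lay well above the other FGF2 embryos. The log2 fold change was 0.73 ± 0.17 in span counts (SE, edgeR adjusted p = 0.0595) and 0.71 ± 0.17 on log2(RPKM + 1) (SE, limma adjusted p = 0.0814). Without FGF2 8 the difference was smaller and more even. It was then 0.51 in span counts (edgeR adjusted p = 0.00783) and 0.53 in RPKM (limma adjusted p = 0.0352), and it passed. Of the 6 omissions of a single embryo, this was the only 1 in which Ina passed. In the others the adjusted p reached 0.215 in span counts (edgeR) and 0.262 in RPKM (limma). Without FGF2 8, Nefl, Nefm, Ina and Gap43 were called higher, 4 of 10 in span counts and 4 of 8 in RPKM, beside a background of 4.31% of 22373 genes called higher and 4.38% lower in span counts, and 4.40% and 3.20% of 13950 symbols in RPKM. The Ina span overlaps that of Nt5c2.

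Nefh, the heavy subunit of mature axons, was barely present. It had 65 to 130 reads per FGF2 library and 41 to 74 per vehicle library over its whole span. Its RPKM was 0.186, 0.128 and 0.200 in FGF2 6, 7 and 8 and 0.166, 0.0726 and 0.130 in vehicle 7, 8 and 9. The groups overlapped, and a difference was not detectable at this depth (log2 fold change of 0.56 ± 0.39, SE, edgeR adjusted p = 0.482, and 0.13 without FGF2 8).

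Prph varied most. It stood at 0.0293 RPKM in FGF2 6, with 4 reads in all, against 1.56 and 1.35 RPKM in FGF2 7 and 8. The vehicle embryos were at 0.278, 0.646 and 0.450 RPKM. FGF2 6 was thus the lowest of the 6 and FGF2 7 and 8 the 2 highest, a spread within 1 group that exceeded the difference between groups (log2 fold change of 1.05 ± 1.01, SE, edgeR adjusted p = 0.621, and 0.76 without FGF2 8). Reads covered 14.4% of the Prph span in FGF2 6 and 63.6% to 99.1% in the other 5 libraries. Among 12 marker genes of peripheral and cranial sensory neurons, the summed level was 48.9, 40.8 and 65.4 CPM in FGF2 6, 7 and 8. In the vehicle animals it was 59.4 to 71.2 CPM. Ntrk3 carried most of this sum and was lower in all FGF2 embryos, and without it, a choice made after seeing the data, the sum was 15.7, 17.1 and 17.1 CPM in FGF2 6, 7 and 8 against 9.62 to 10.1 CPM. The part of sensory neurons in the Prph values was not tested. Of these 12 genes 9 were tested and 2 rose (Ret and Sncg), also without FGF2 8, when Ntrk3 was called lower, and Pou4f2 was at 0 in every vehicle embryo.

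Gap43, a membrane protein of growth cones, was at 79.3, 80.5 and 140.1 RPKM in FGF2 6, 7 and 8. Its vehicle values were 57.9, 61.1 and 67.3 RPKM. The groups did not overlap, and FGF2 8 was 2.26 times the vehicle mean while FGF2 6 and 7 averaged 1.29 times. With FGF2 8 the difference did not pass (0.65 ± 0.23 in span counts, SE, edgeR adjusted p = 0.174). Without it Gap43 was higher by 0.31 in span counts (edgeR adjusted p = 0.0282) and by 0.36 in RPKM (limma adjusted p = 0.0419), and both passed. Gap43 passed in only this 1 of the 6 omissions of a single embryo. In the others the adjusted p reached 0.401 in span counts (edgeR) and 0.435 in RPKM (limma).

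Stmn2, a tubulin-binding protein that regulates microtubule turnover in the growth cone, showed the same shape. Its RPKM was 90.3, 105 and 163 in FGF2 6, 7 and 8 and 77.6, 71.4 and 89.2 in vehicle 7, 8 and 9. FGF2 6 lay just above vehicle 9, so the groups were barely apart on this scale, and in CPM they overlapped. The log2 fold change was 0.53 ± 0.21 in span counts (SE, edgeR adjusted p = 0.230) and 0.23 without FGF2 8 (edgeR adjusted p = 0.199).

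Of the microtubule genes, Tubb3 and Mapt stood apart in FGF2 8 only. Tubb3 was at 389, 394 and 592 RPKM in FGF2 6, 7 and 8 and at 394, 394 and 379 in vehicle 7, 8 and 9. FGF2 6 and 7 averaged 1.01 times the vehicle mean, and FGF2 8 stood at 1.52 times. Mapt was at 16.3, 18.8 and 39.9 RPKM in the FGF2 embryos and at 15.9, 19.4 and 20.8 in the vehicle embryos, so FGF2 8 was at 2.14 times the vehicle mean and the other 2 within the vehicle range. Map2 was at 16.1, 16.9 and 22.9 against 15.2, 15.8 and 20.0 RPKM, again with FGF2 8 highest. The span count log2 fold changes were 0.18 ± 0.17 for Tubb3, 0.39 ± 0.33 for Mapt and 0.12 ± 0.16 for Map2 (SE, edgeR adjusted p = 0.612, 0.568 and 0.724). Without FGF2 8 all 3 turned slightly negative in span counts, at -0.060, -0.14 and -0.090, and in RPKM Tubb3 was at 0.0083, Mapt at -0.082 and Map2 at -0.032. The Tubb3 span lies inside that of Gm20388, and the spans of Mapt and Map2 each overlap 3 other annotated genes.

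**Figure D2:**
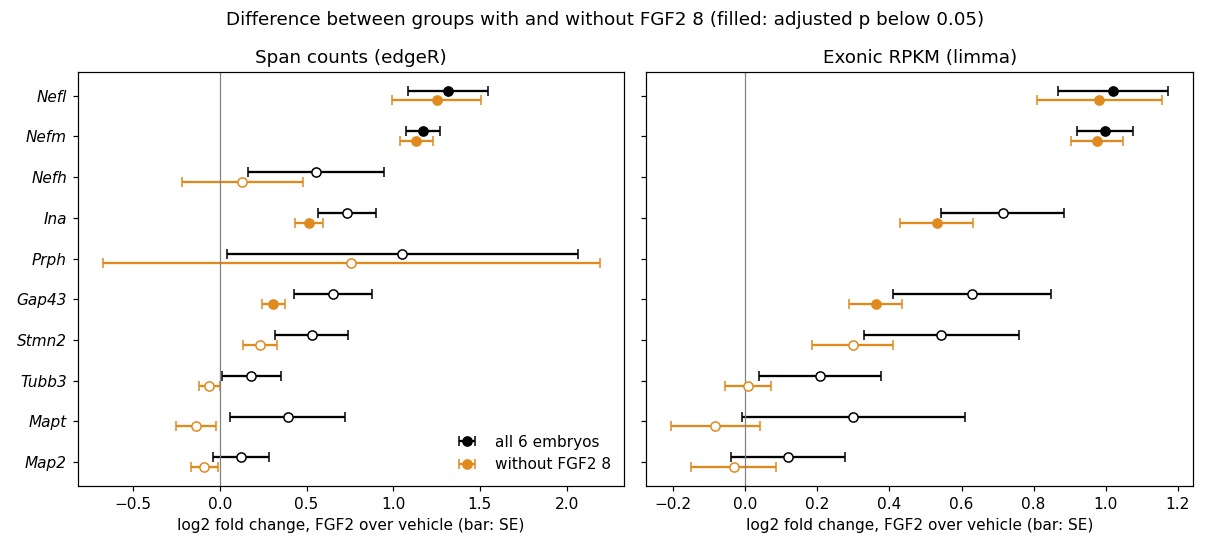
Log2 fold change of FGF2 over vehicle (horizontal axis, bars are SE) for each gene in span counts (left) and exonic RPKM (right), with all 6 embryos (black) and without FGF2 8 (orange). Filled points passed an adjusted p of 0.05. Nefl and Nefm hardly move when FGF2 8 is left out, Ina and Gap43 are smaller but become filled, and Tubb3, Mapt and Map2 then lie near 0.

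The levels were also set against Tubb3 within each embryo. These ratios are a description with no test. Relative to the mean vehicle ratio, Nefm to Tubb3 was 2.24, 2.23 and 1.55 in FGF2 6, 7 and 8, against 0.920 to 1.05 in vehicle. Nefl to Tubb3 was 2.64, 2.28 and 1.79, against 0.658 to 1.21. In both genes all FGF2 embryos exceeded all vehicle embryos, with FGF2 8 closest to them. Ina to Tubb3 was 1.51, 1.38 and 1.40 against 0.873 to 1.14, and Gap43 to Tubb3 was 1.28, 1.28 and 1.48 against 0.919 to 1.11. FGF2 8, which was far above the other embryos in the RPKM of Ina, was thus within the range of FGF2 6 and 7 once divided by Tubb3. Ratios of Stmn2, Mapt and Map2 to Tubb3 overlapped between the groups.

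**Figure D3:**
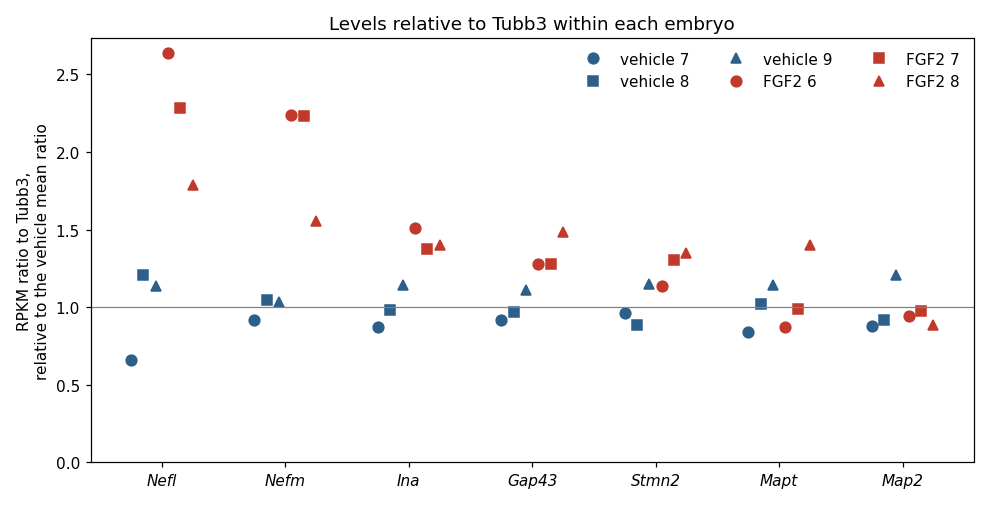
RPKM ratio of 7 genes to Tubb3 in each embryo, divided by the mean ratio of the 3 vehicle embryos (vertical axis, linear). The red FGF2 points of Nefl, Nefm, Ina and Gap43 lie above all blue vehicle points, at 1.28 to 2.64, and those of Stmn2, Mapt and Map2 overlap them.

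The makeup of the filament transcripts differed as well. Nefl and Nefm together were 18.5%, 19.1% and 14.4% of the summed RPKM of Nefl, Nefm, Nefh and Ina in FGF2 6, 7 and 8. They were 12.01%, 13.9% and 11.9% in vehicle 7, 8 and 9. FGF2 8, whose Ina level was highest, came close to vehicle 8.

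In CPM, 4 of the 10 genes had all FGF2 embryos above all vehicle embryos, beside 14.6% of all genes tested. In RPKM it was 5, all among the 8 genes tested there, beside 16.6% of the symbols tested. None had all FGF2 embryos below, where the background was 13.6% in CPM and 11.9% in RPKM. FGF2 8 was the highest of the 6 embryos in RPKM for 9 of the 10 genes. The share of all symbols with FGF2 8 highest was not counted, so this is not shown to be particular to these genes.

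Other genes of the neuronal cytoskeleton were counted against the same background of 2.68% called higher and 0.951% lower. For the calls without FGF2 8, here and in all lists below, the background was 4.31% higher and 4.38% lower. Of 18 further tubulins and microtubule regulators, 1 rose, 1 fell and 16 did not pass, with a median log2 fold change of 0.06. Tppp3, a tubulin polymerisation-promoting protein, rose to 10.8 ± 2.14 from 4.95 ± 0.772 CPM (SD, n = 3). Map1a, a microtubule-associated protein, fell from 88.8 ± 3.53 to 70.6 ± 2.40 CPM, over a span that overlaps Ppip5k1. Map6, a microtubule stabiliser, measured 80.4 ± 21.1 against 48.1 ± 2.58 CPM without passing (edgeR adjusted p = 0.0597), and it passed without FGF2 8 (edgeR adjusted p = 0.00611). The list then had 3 genes higher (Tppp3, Map6 and Stmn4) and 1 lower (Map1a), with a median of -0.032.

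Among 20 growth cone and membrane skeleton genes, 1 rose, 0 fell and 19 did not pass, with a median of -0.10. The one that rose was Dpysl4, a collapsin response mediator of the growth cone, to 62.1 ± 8.74 from 30.9 ± 1.19 CPM. Fscn1 and Dbn1, which bundle or bind actin in growth cones, were at 735 ± 18.3 against 889 ± 42.6 and at 544 ± 40.1 against 660 ± 19.2 CPM, and neither passed. Without FGF2 8 the same list had 1 gene higher and 7 lower, among them Fscn1 and Dbn1 (edgeR adjusted p = 0.0325 and 0.0268). The median was then -0.18.

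Of 13 genes for axonal transport motors 0 passed in either direction (median -0.18), and without FGF2 8 there were 5 lower. Kif21a and Kif1a, both kinesins, were at 133 ± 15.2 against 168 ± 2.15 and at 184 ± 17.7 against 225 ± 6.52 CPM. Both were among those called lower without FGF2 8 (edgeR adjusted p = 0.00281 and 0.0202). Of 10 other intermediate filament genes, among them Vim and Nes of progenitors, 0 passed, with a median of -0.18 and 0 also without FGF2 8. Krt18, a keratin of simple epithelia, measured 6.49 ± 2.33 against 2.21 ± 1.44 CPM (edgeR adjusted p = 0.121).

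Other neuronal genes were tested in the same way. Of 12 RNA-binding and synaptic vesicle genes 0 passed, with a median of 0.04, and without FGF2 8 there were 6 lower and 0 higher. Elavl2 and Elavl4, RNA-binding proteins of young neurons, were at 74.2 ± 11.2 against 107 ± 13.3 and at 121 ± 21.7 against 163 ± 11.3 CPM. Both were among those called lower without FGF2 8 (edgeR adjusted p = 0.00962 and 0.00343). Of 10 genes for the phosphorylation or turnover of neurofilaments 0 passed. Cdk5r2, an activator of the neurofilament kinase Cdk5, was at 15.4 ± 5.99 against 7.32 ± 1.13 CPM with an edgeR adjusted p of 0.0768, and it passed without FGF2 8 (edgeR adjusted p = 0.0288), when Trim2 and Dst were called lower.

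The summed markers of some cell types differed between the groups, and those of others overlapped. The 10 markers of cortical projection neurons summed to 729, 815 and 1423 CPM in FGF2 6, 7 and 8, and to 1578 to 1685 CPM in vehicle. Of these 10 genes 0 passed, none was at 0, and without FGF2 8 there were 9 lower. FGF2 8, which was high in Tubb3, Mapt, Gap43 and Stmn2, was also the FGF2 embryo with the most of these markers. Its sum was still below that of every vehicle embryo. FGF2 8 was also the highest FGF2 embryo in summed ventral, sensory (65.4 CPM) and Cajal-Retzius (257 CPM) markers, but not in the remaining full marker lists. This order rests in part on single genes. Without Ntrk3 the sensory sum was 17.1 CPM in both FGF2 7 and FGF2 8. Without Lhx2, FGF2 8 was also highest in the thalamus and diencephalon list described below (269 CPM). A link between these levels was not tested. The 14 markers of the ventral telencephalon and its neurons summed to 719, 837 and 970 CPM in FGF2 6, 7 and 8, against 101 to 221 CPM. Of these 11 of 14 rose and 0 fell (8 and 0 without FGF2 8), and none was at 0 over all vehicle embryos.

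Markers of further neurons that carry neurofilaments were counted too. Of 10 markers of motor and brainstem neurons 5 were tested and 1 rose, Th, the enzyme that starts dopamine synthesis, to 4.30 ± 0.295 from 0.533 ± 0.394 CPM. Their sum was 7.87 to 10.6 CPM in the FGF2 and 1.97 to 3.19 CPM in the vehicle embryos, and Mnx1, which defines motor neurons, was at 0 in all 6. Of 10 markers of the thalamus and diencephalon 8 were tested and 3 rose (Gbx2, Barhl2 and Tcf7l2), of which 0 passed without FGF2 8. Their sums were 544 to 680 against 506 to 613 CPM, with Pou4f3 at 0 in the vehicle embryos. Lhx2, which cortical progenitors also express, made up most of these sums, and without it they were 233, 105 and 269 CPM in FGF2 6, 7 and 8 against 64.0 to 72.1 CPM. Cajal-Retzius markers summed to 217 to 257 against 183 to 219 CPM, none was at 0, and 4 of 8 rose (Ebf3, Lhx1, Trp73 and Lhx5). Cortical progenitor markers summed to 1776 to 1893 against 2074 to 2202 CPM, and none was at 0. Of the 10, 4 fell (Emx1, Eomes, Neurog2 and Pax6) and 6 did not pass. Among those 6, Fabp7 had all FGF2 embryos above all vehicle embryos. Its level was 269 ± 43.2 against 193 ± 29.8 CPM (SD, edgeR adjusted p = 0.129). Glial and neural crest markers summed to 80.3 to 106 against 47.0 to 55.4 CPM, and 4 of 8 rose (Olig1, Olig2, Sox10 and Erbb3). Markers of meninges, vessels, microglia and blood summed to 2133 to 2423 against 3294 to 3588 CPM, and 2 of 13 fell (Col1a1 and Col1a2). The 2 collagens carried that difference, since the other 11 summed to 591 to 832 against 561 to 730 CPM. The median log2 fold change of this list was 0.22, and 5 members (Cx3cr1, Aif1, Csf1r, Pdgfrb and Pecam1) had all FGF2 embryos above all vehicle embryos without passing. None of the markers in the last 2 lists was at 0 over a group. Without FGF2 8, Gata3 of the motor and brainstem list, Sox2 of the progenitor list and Cx3cr1 were also called higher and Reln of the Cajal-Retzius list lower, and Sox10 was no longer called. The part of any of these cell types in the rise of Nefl and Nefm was not tested.

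**Figure D4:**
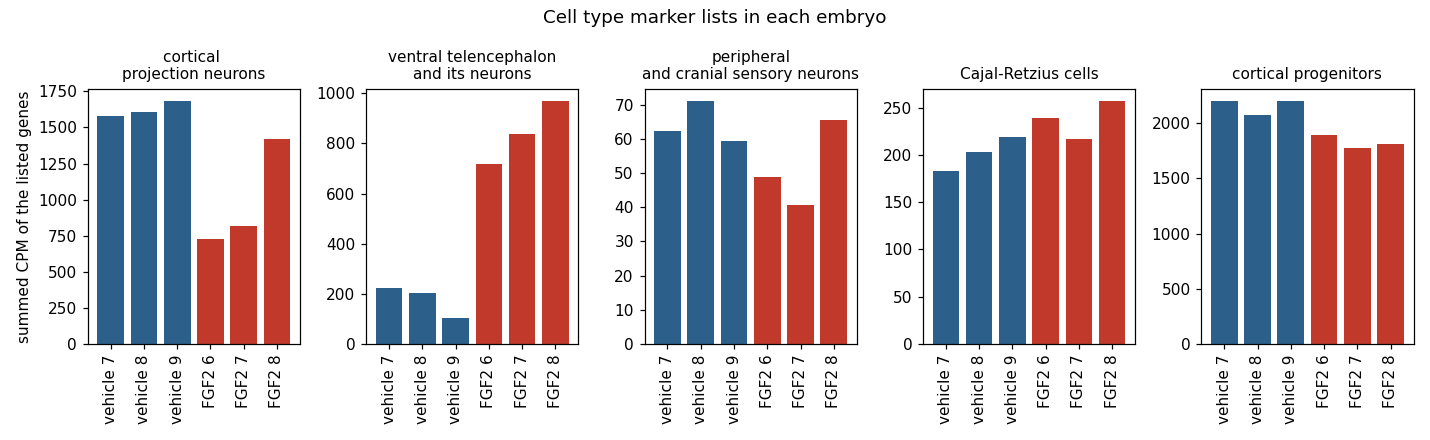
Summed CPM of 5 lists of cell type markers (vertical axes from 0, each panel with its own scale) in the 3 vehicle embryos (blue) and the 3 FGF2 embryos (red). Cortical projection neuron markers are lower in FGF2 6 and 7 than in FGF2 8, and ventral telencephalon markers are higher in all 3 FGF2 embryos, at 719 to 970 CPM against 101 to 221.

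The 5 genes whose RPKM pattern over the 6 embryos was closest to that of Nefm were Pipox, Prox1, Rgs2, Rgs16 and Gdpd2. Likeness was the root mean square difference of centred log2(RPKM + 1) values among 13811 genes with a mean of at least 1 RPKM, and it was 0.0757 for Pipox and 0.0891 for Gdpd2. Rgs2, a regulator of G protein signalling, was at 10.98, 10.2 and 9.89 RPKM in FGF2 6, 7 and 8 and 4.81, 4.82 and 5.26 in vehicle 7, 8 and 9. Prox1, a homeobox transcription factor, was at 1.59, 1.76 and 2.14 against 0.454, 0.528 and 0.364 RPKM. The log2(RPKM + 1) scale understates the change of low genes such as Prox1, so likeness on it is not likeness in fold change.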

How the data were processed

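RNA from 6 embryos, 3 per group, was sequenced as paired-end libraries, per the labels' protocols. The submitters' processing notes name CASAVA 1.8, TopHat2 2.0.9, Bowtie2 2.1.0.0, bedtools 2.12.0 and the build NCBIM37, with no role for each. The deposited counts are reads over each gene's span, and the deposited fraction is the share of the span covered. The sources used here do not state whether strand was used, so the counts of nested genes were compared. The deposited RPKM follow exonic length. The library sizes that count and RPKM imply were far more alike over the 10 genes with exon length than with span length.

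Counts were tested with edgeR 4.0.16 in R 4.3.3 (filterByExpr, TMM, robust quasi-likelihood test). RPKM were tested with limma 3.58.1 on log2(RPKM + 1), for symbols of at least 1 RPKM in 3 libraries. Both were fitted over all genes without a covariate, with Benjamini-Hochberg adjustment, and checked on simulated data. Counts were matched by Ensembl ID, and RPKM by a symbol that belongs to 1 gene. An exact permutation test of 3 against 3 could reach no two-sided p under 0.1, so none was run. The p-values set each group difference against the spread between embryos, as moderated over all genes tested. The sources used here give no pairing of embryos between the 2 groups.

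The members and lists were chosen with earlier results of these data known. Besides the 10 genes, the text names at most 3 genes per cytoskeleton list, by smallest p, and the 5 most like Nefm. Marker genes named as called were picked after their values were seen. Alternatives were 15 for span counts, including DESeq2 1.42.0, and 12 for RPKM, with 1 added after seeing the data. Sums of 3 marker lists without the genes that carry them were also added then.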

Additional observations from a re-analysis of the deposited data

How the results depend on the processing

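Nefm was called as higher under every alternative tried except sex as a covariate, and Nefl was also not called without some single embryos and without the RPKM filter (adjusted p = 0.0523). Ina was called in span counts with library totals alone (adjusted p = 0.0390), without the count filter (0.0479), with DESeq2 (0.00125) and with voom quality weights (0.0124). Gap43 was called with DESeq2 (0.0459) and, in RPKM, with sample quality weights (0.0330). A replicate block on the embryo number was also fitted (7 and 8 occur in both groups). Numbers 6 and 9 occur in 1 group each, so the group difference then rests on embryos 7 and 8 of both groups alone. Genes called in that fit were 557 higher and 146 lower in span counts and 355 and 91 in RPKM. Ina and Gap43 were called in both readouts and Stmn2 in RPKM (limma adjusted p = 0.0437). Deviations of same-numbered embryos from their group means correlated at -0.05 (number 7) and -0.02 (number 8). Only these numbers occur in both groups, so the check cannot exclude a pairing of embryos. Log2 fold changes turned negative with voom for Prph (-0.81), Tubb3 (-0.0091) and Map2 (-0.0080), and without FGF2 8. Leaving out single embryos gave -0.060 to 0.29 for Tubb3, -0.14 to 0.62 for Mapt and -0.090 to 0.22 for Map2 in span counts, and -0.082 to 0.54 for Mapt and -0.032 to 0.24 for Map2 in RPKM, with the lowest value without FGF2 8 in each. Their causes were not tested.

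Over all genes, 590 higher and 209 lower in span counts became 1359 and 706 with DESeq2, 1273 and 986 with voom quality weights, and 4 and 1 with sex as a covariate. In RPKM, 313 and 103 became 1307 and 681 with sample quality weights, 13 and 1 with sex as a covariate, and 42 lower without the filter. Leaving out single embryos gave 181 to 964 higher and 37 to 979 lower in span counts, and 64 to 614 and 17 to 446 in RPKM, with the highest counts without FGF2 8. The cause was not tested. Reads were few for Nefh and Prph, which limits what their values show.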
